A study of Mus musculus with 18 samples.

Results

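Mouse embryonic stem cells (ESCs) labelled Max-null were compared between day 6 and day 4 of doxycycline (Dox), the treatment that ablates Max expression in them. Each day had 1 array, so the comparison took 2 of the 18 arrays of the series, and its arrays were picked by their titles and not by any measured value. The question was which genes differed only late after the loss of Max, which went on in the direction they had already taken, and which turned back. The series measured RNA of male 129SV EBRTcH3 ESCs and their derivatives on Affymetrix arrays, to compare an inhibitor of PI3K with the ablation of Max. All 5 arrays used for the descriptions below came from ESCs kept in serum with LIF, the cytokine that holds mouse ESCs in the undifferentiated state. They were Max-null ESCs at Dox day 6, Max-null ESCs at Dox day 4, Max-null ESCs without Dox, p110 alpha-overexpressing Max-null ESCs with Dox, for which no day was given, and the same p110 alpha line without Dox. The labels do not say whether a line was 1 clone or a pool, nor how the Max expression that Dox removes was supplied.

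Max is the partner protein that c-Myc, N-Myc and L-Myc need to bind DNA, where the pair recognises the E-box letters CACGTG and activates genes of growth, ribosome assembly and metabolism. Max also pairs with the repressors of the Mxd and Mnt group and with Mga, and through Mga it belongs to PRC1.6, a Polycomb complex that keeps germ cell genes silent in ESCs. In ESCs, Myc activity is tied to proliferation and to the hold on pluripotency.

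Values are log2 levels, so a difference of 1 is a 2-fold difference, and a gene was counted as higher or lower where it differed at least 2-fold between the days. Genes at or under 4.64 on both days, a level that 40% of the table does not exceed, were left out, and 13937 of 18194 genes stayed in. With 1 array per day there was no spread between replicates, no test could be made and no value carries an error. Differences from day 4 to untreated ESCs share the day 4 array with the comparison, so a deviation of that array would appear in both with opposite sign. The p110 alpha pair shares no array with it.

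Both Dox arrays stood apart from the rest in control measures, and the day 6 array most in several of them. The 3′ minus 5′ difference of the control probe sets, which widens as RNA is cut or copied short, was 0.41 at day 6 and 0.30 at day 4 for Gapdh, against 0.14 to 0.19 in the 12 other arrays whose median lay in the same range (the table holds 14 such arrays and 4 with a lower median). For Actb it was 1.16 at day 6 and 1.11 at day 4, against 0.75 to 1.02. The shift between the days was thus 0.12 for Gapdh and 0.06 for Actb, small beside the 2-fold threshold. The Tfrc control pair shifted by 0.60 and the Pcx pair by -0.20. For Tfrc the difference was 2.38 at day 6 and 1.79 at day 4, against 0.55 to 1.20. For Pcx it was 2.88 and 3.08, against 1.38 to 2.16. Between day 4 and untreated ESCs the Tfrc pair shifted by 0.74 and the Pcx pair by 1.41, a step that the gene classes below also use. The 9 hybridisation control probe sets report added bacterial and phage P1 sequences and not RNA of the cells. They averaged 12.32 at day 6 and 11.88 at day 4, against 11.03 to 11.19, and all 9 were higher at day 6. The spread of all probe sets within an array was 2.36 at day 6 and 2.48 at day 4 (SD, log2), against 2.50 to 2.57. The day 6 array was the highest of 14 for 3378 genes and the lowest for 3801, where no other array was highest for more than 1227 or lowest for more than 1433. The comparison cannot be made without that array, and the part these measures have in the results was not tested.

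**Figure D1:**
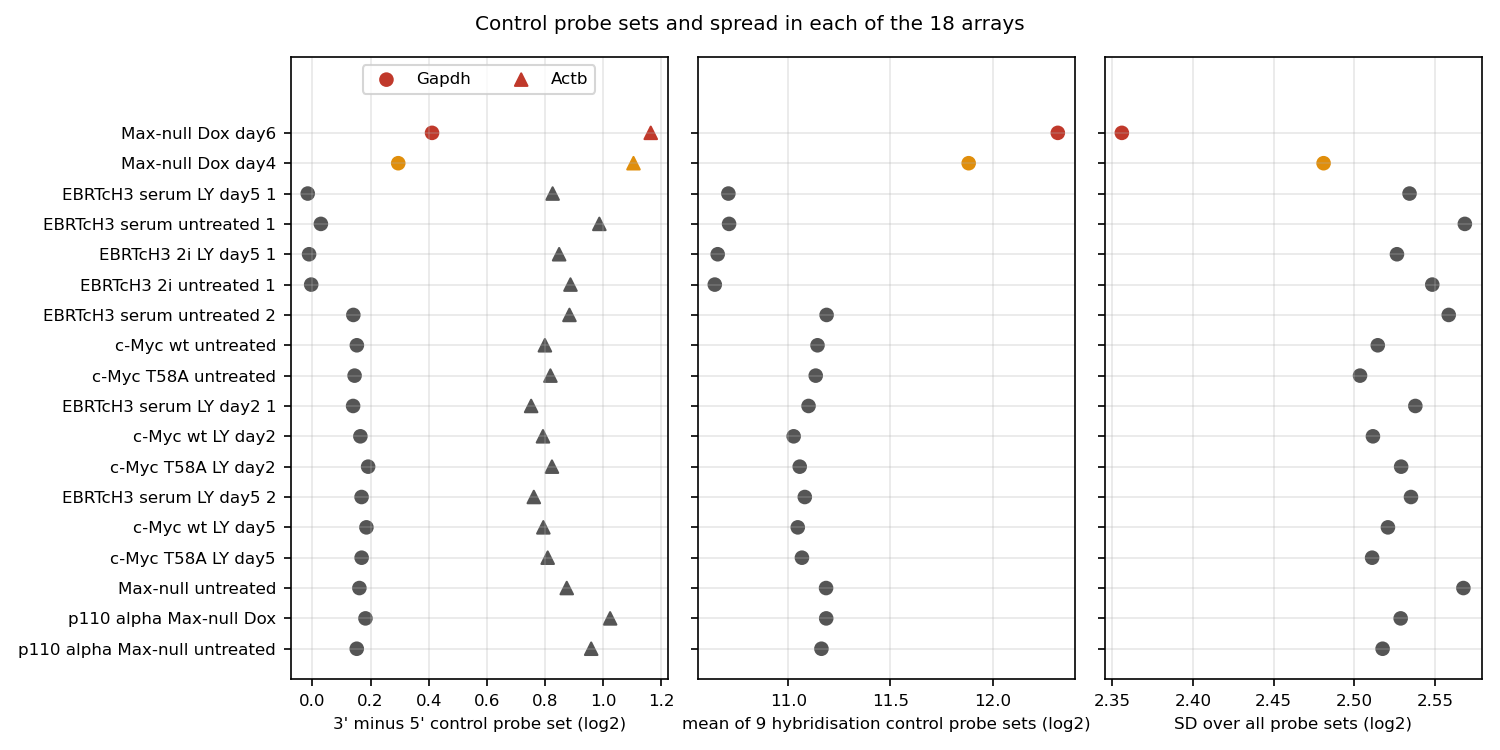
Control measures in each of the 18 arrays on log2 axes: the 3′ minus 5′ difference of the Gapdh (circles) and Actb (triangles) control probe sets, the mean of 9 hybridisation control probe sets, and the SD over all probe sets. The Max-null Dox arrays of day 6 (red) and day 4 (orange) lie at the high end of the first 2 measures and the low end of the third, with the day 6 mean of hybridisation controls at 12.32.

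The manipulated genes were read first. Max lay between 6.33 and 7.18 on the 5 Max-null arrays, against a median of 8.40 over the 13 arrays other than day 6, so it was low in both Max-null lines with or without Dox. Max read 7.09 in untreated Max-null ESCs, 6.89 at day 4 and 7.18 at day 6, a difference of 0.29 between the days, and 6.33 with and 6.70 without Dox in the p110 alpha line. Max has 1 probe set here, and whether it covers the sequence that is removed or switched off is not stated, so it gives no check of the ablation by Dox. Myc read 8.91, 9.64 and 9.43 in untreated, day 4 and day 6 Max-null ESCs, a difference of -0.21 between the days. Mycn, the gene of N-Myc, read 11.64, 12.47 and 11.96, and its other probe sets differed between the days by -0.36 to 0.72. Pik3ca, which encodes p110 alpha, read 8.50, 7.39 and 7.23, and its other probe sets differed by -1.75 to -0.62. In the line labelled p110 alpha-overexpressing, Pik3ca read 8.27 with and 8.82 without Dox, beside 8.50 in untreated Max-null ESCs, so these values show no excess. The sources used here do not say if any of these probe sets would detect the transgene.

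The ESC identity of the cells was seen on all 5 arrays. All 8 ESC marker genes lay above the level filter on each, and their mean level was 12.66 in untreated Max-null ESCs, 12.61 at day 4 and 12.22 at day 6. Of 8 fibroblast markers, 3 lay above the filter without Dox, 4 at day 4 and 5 at day 6, with mean levels of 4.67, 4.66 and 5.10. Primitive endoderm markers averaged 4.41, 4.90 and 5.34 over 6 genes and trophoblast markers 4.18, 4.60 and 5.10 over 6 genes. Neuroectoderm markers averaged 6.50, 6.40 and 6.29 over 4 genes, and blood markers 4.17, 4.06 and 4.37 over 4 genes. Genes of low level tended to be higher at day 6 whatever their kind, with a median difference of 0.27 in the lowest quintile of level. In bulk RNA, fewer cells of a type and less RNA per cell cannot be told apart.

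Between day 6 and day 4, 536 genes differed at least 2-fold, 3.85% of those measured. Of these, 200 were higher at day 6 (1.44%) and 336 lower (2.41%), and the SD of the difference over all genes was 0.47. By day 4, against untreated ESCs, 698 genes were higher (5.19%) and 1172 lower (8.71%), with an SD of 0.78. At day 6, against untreated ESCs, 1249 genes were higher (8.91%) and 2186 lower (15.6%). In the p110 alpha line 206 genes were higher with Dox than without (1.55%) and 59 lower (0.445%). These 3 pairs were each filtered on their own arrays, which left 13457, 14020 and 13261 genes. Among the 13937 genes of the main comparison, 708 were higher by day 4 (5.08%) and 1110 lower (7.96%). Over these 13937 genes the difference with Dox in the p110 alpha line and that between the days had a Spearman correlation of 0.07. The genes higher at day 6 were of low level, with a median of 6.18 at day 6 and 5.02 at day 4, and 81 of the 200 were below the level filter at day 4. The genes lower at day 6 had a median of 6.40 at day 6 and 7.76 at day 4, and 34 of the 336 were below the filter at day 6.

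The difference depended on a gene's level over the whole array. By quintile of the mean level of both days, from low to high, its median was 0.27, 0.14, -0.04, -0.09 and -0.17, and the Spearman correlation with the level was -0.36 over 13937 genes. Of the 200 higher genes, 97 lay in the lowest quintile and 5 in the highest, and of the 336 lower genes, 48 and 45. It also ran with gene length in the reference annotation, with a Spearman correlation of -0.19 over 13915 genes. The quintile with the longest genes held 133 of the lower genes and that with the shortest 33. With the trend on level taken out, a step added after the data were seen, 106 genes were higher and 356 lower, and 370 of the 536 genes were still counted.

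**Figure D2:**
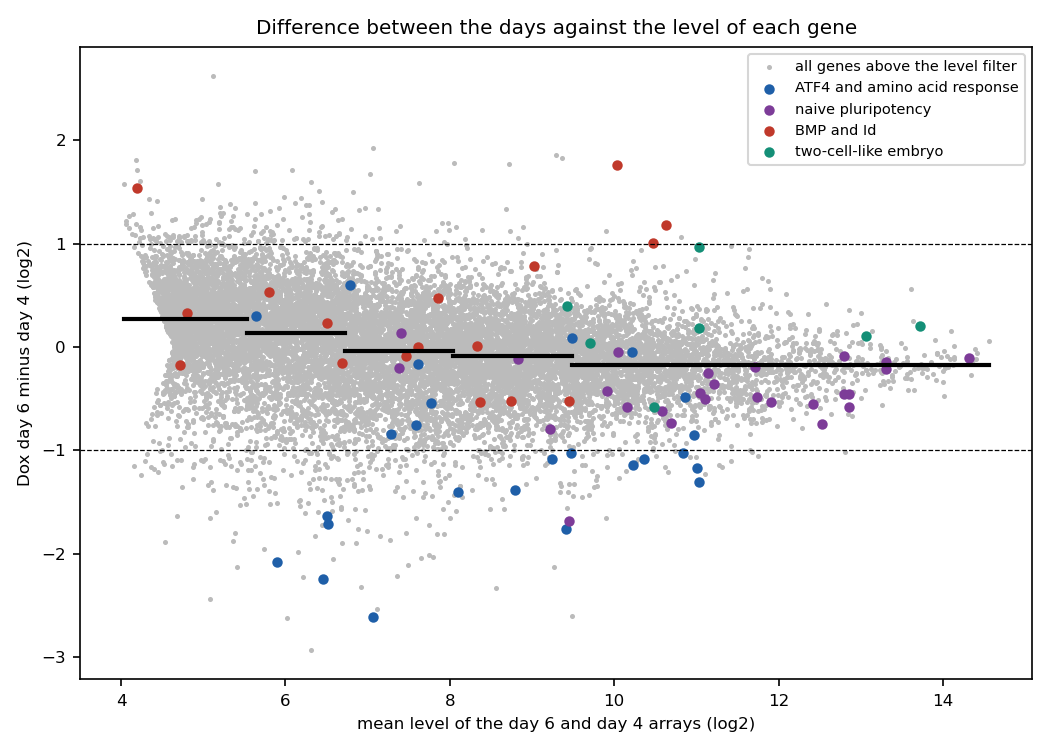
Day 6 minus day 4 log2 difference of each of 13937 genes (grey) against the mean log2 level of both days, with the median of each quintile of the level (black bars), the 2-fold lines (dashed) and 4 gene lists in colour. The medians run from 0.27 in the lowest quintile to -0.17 in the highest, while ATF4 and amino acid response genes (blue) lie below them at most levels and Id3, Id1 and Id2 (red) above.

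The 15 largest differences below 0 were led by Zfp141, a zinc finger gene, which read 8.65, 7.78 and 4.84 in untreated, day 4 and day 6 Max-null ESCs. Dlg3, which encodes a synaptic scaffold protein, read 7.54, 7.33 and 4.71. Nupr1, a small stress-induced chromatin protein, read 10.46, 8.37 and 5.76. All 3 were far lower at day 6 than at day 4. Day 6 was the lowest of the 14 comparable arrays for Zfp141 and Dlg3, as it was for 3801 of all 13937 genes. For Nupr1 the lowest of the other 13 arrays read 5.59. Slc1a4, a carrier of neutral amino acids, differed by -2.54 between the days, Bcl3, a nuclear partner of NF-kappa-B, by -2.33, Trib3, a pseudokinase of the stress response, by -2.24, and Slc6a15, a carrier of branched-chain amino acids, by -2.23. The other genes of the 15 were Gm4850 (-2.60), Lrrc31 (-2.44), Gm2381 (-2.33), Clock, a core gene of the circadian oscillator (-2.22), Svip (-2.13), Rlf (-2.12), Ccdc117 (-2.11) and Vldlr, a lipoprotein receptor (-2.09). Other probe sets of the same gene did not always share the difference: they gave -0.33 to 0.18 for Clock, -0.55 to 0.36 for Rlf, 0.14 for Svip and -0.11 for Ccdc117, against -2.58 for Nupr1 and -2.32 for Trib3.

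The 15 largest differences above 0 began with Pcdh17, a cell adhesion protein of the protocadherin family, which read 2.81, 3.80 and 6.43 in untreated, day 4 and day 6 Max-null ESCs. Acta2, smooth muscle actin, read 5.03, 6.11 and 8.03. Krt18 and Krt8, the keratin pair of simple epithelia, read 7.27, 8.36 and 10.22 and 7.44, 8.45 and 10.29. For these 4 genes the day 6 level was above the day 4 level, and the day 4 level above that without Dox, though Krt18 and Krt8 each read higher than at day 6 on another array of the 14, up to 10.48 and 10.34. In the p110 alpha line they differed by -0.15 to 0.42 with Dox, Pcdh17 by -0.11. S100a6, a calcium-binding protein, differed by 1.77 between the days, Id3, an inhibitor of helix-loop-helix factors, by 1.76, Cyp26a1, the enzyme that clears retinoic acid, by 1.67 and Srgn, a proteoglycan core protein, by 1.60. The others were Svs4 (1.81), Lmntd2 (1.78), Zfp672 (1.72), Cartpt (1.71), Rassf4 (1.71), Gbp2, a guanylate-binding protein (1.61), and Gm26611 (1.59). Of the 15, 4 were below the level filter at day 4, Pcdh17, Svs4, Cartpt and Gbp2. The other probe sets of Krt8 gave 1.82 and 1.96, and that of Rassf4 gave 0.77.

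Of these 30 genes, 26 had a RefSeq promoter window of 250 bases before to 50 after the start (GRCm38.p6), and 4 of the windows held CACGTG, the letters that Myc and Max bind. They belonged to Nupr1, Rlf, S100a6 and Gm26611, so the letters stood in windows of genes that differed in either direction. The windows of Nupr1 (chr7:126625421-126625720, minus strand) and S100a6 (chr3:90612644-90612943, plus strand), the largest difference each way among the 4, follow with the letters in capitals, which begin at position -225 from the start in Nupr1 and at position 15 in S100a6.
Nupr1: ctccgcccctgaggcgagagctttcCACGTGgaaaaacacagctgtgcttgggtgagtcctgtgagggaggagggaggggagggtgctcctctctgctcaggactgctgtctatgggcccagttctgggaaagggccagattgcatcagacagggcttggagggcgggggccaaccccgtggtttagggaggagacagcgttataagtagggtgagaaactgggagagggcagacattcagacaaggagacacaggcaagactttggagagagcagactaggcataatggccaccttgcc
S100a6: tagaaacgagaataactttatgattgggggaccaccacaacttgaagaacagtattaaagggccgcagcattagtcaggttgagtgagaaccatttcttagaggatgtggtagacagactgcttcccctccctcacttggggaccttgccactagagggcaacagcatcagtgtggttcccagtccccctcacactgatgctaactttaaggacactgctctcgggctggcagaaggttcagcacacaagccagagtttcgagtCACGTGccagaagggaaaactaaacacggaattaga
Over all genes with a window, CACGTG, which reads the same on both strands, was found in 12 of 152 windows of genes higher at day 6 (7.89%), 28 of 247 of genes lower (11.3%) and 1287 of 11207 of all genes (11.5%). TTCCCGC, the letters of E2F-type sites searched on both strands, was found in 10.5%, 8.91% and 9.24%. The motifs can share no more than an end base, and a match describes letters and not binding.

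Of the 41 gene lists, the ATF4 and amino acid response had the lowest median between the days. ATF4 is a transcription factor that cells make when amino acids run short or protein folding fails, and it activates genes for amino acid synthesis, import and tRNA charging. Of 25 genes of this response, 15 were at least 2-fold lower at day 6 and none was higher, beside 2.41% of all genes lower and 1.44% higher. The median was -1.08, against -0.0032 for all genes, and 22 of the 25 lay below 0, beside 7011 of all 13937 genes. Day 6 was the lowest of the 14 arrays for 17 of them, beside 3801 of all 13937 genes. The same genes had a median of -0.98 between day 4 and untreated ESCs, with 11 of them at least 2-fold lower, beside 7.96% of all genes. In the p110 alpha line with Dox their median was -0.09, and none passed 2-fold. Of all 13937 genes only 189 were 2-fold higher there and 56 lower, so that count says little for a list of this size. With the level trend removed the median was -0.91, and with each array centred on its own median it was -1.21.

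Within that list the 4 largest differences were those of Nupr1, Trib3, Vldlr and Psat1. Trib3, which restrains ATF4 itself, read 9.73 in untreated Max-null ESCs, 7.57 at day 4 and 5.33 at day 6, and 11.18 with and 11.05 without Dox in the p110 alpha line. Vldlr read 8.57, 6.94 and 4.86 in the Max-null arrays, and 9.96 with and 10.40 without Dox in the p110 alpha line. Psat1, an enzyme of serine synthesis, read 12.20, 10.29 and 8.53 in the Max-null arrays, and 12.19 with and 12.04 without Dox in the p110 alpha line. In each of the 3 the level was lower at each step, and the p110 alpha arrays lay above the day 4 array. Other probe sets of Vldlr gave -1.41, -0.90 and -0.38 between the days. Atf4 itself, named after its values were seen, read 12.27, 11.59 and 10.43, and its other probe sets differed by -1.83 and -0.37 between the days. Asns, asparagine synthetase, read 12.67, 11.69 and 10.38, and Chac1, which breaks down glutathione, read 9.76, 7.32 and 5.69. The 3 members above 0 were Atf3 (0.60), Cbs (0.30) and Sesn2 (0.09), and Ddit3, the CHOP gene, differed by -0.16.

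Enzymes of serine and mitochondrial folate metabolism ran beside the ATF4 list and partly belong to it. Of 26 genes of nucleotide and one-carbon synthesis, 7 were at least 2-fold lower at day 6 and none higher, beside 2.41% and 1.44% of all genes, with a median of -0.33. The 7 were Psat1 (-1.76), Mthfd2 (-1.41), Psph (-1.39), Mthfd1l (-1.35), Adsl (-1.30), Phgdh (-1.08) and Shmt2 (-1.08). All except Adsl, an enzyme of purine synthesis, act in serine synthesis or in the mitochondrial use of serine for one-carbon units. Psph, the last enzyme of serine synthesis, read 10.67, 8.96 and 7.58 in untreated, day 4 and day 6 Max-null ESCs, and 10.99 with and 11.00 without Dox in the p110 alpha line. Mthfd1l, which releases formate from mitochondria, read 11.00, 10.46 and 9.11, and 10.73 with and 10.79 without Dox in the p110 alpha line. Both were lower at day 6 than in any of the other 13 arrays, where day 6 was the lowest array for 3801 of all 13937 genes. Between day 4 and untreated ESCs the list had a median of -0.72, with 8 genes at least 2-fold lower, beside 7.96% of all genes. Its median was thus less far from 0 in the later step.

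Several genes for tRNA synthetases, which load amino acids onto tRNAs, were lower at day 6. Of 19 genes of translation initiation and tRNA charging, 5 were at least 2-fold lower, beside 2.41% of all genes, all of them synthetases: Cars (-1.43), Sars (-1.35), Nars (-1.17), Gars (-1.14) and Yars (-1.14). Sars, for serine, read 11.51, 10.44 and 9.09 in untreated, day 4 and day 6 Max-null ESCs, and Cars, for cysteine, read 10.27, 10.41 and 8.98. Cars thus differed late and Sars at both steps. A second probe set of Sars differed by -1.19 and one of Nars by -0.92, while the second probe set of Cars differed by 0.21. The list median was -0.43 in this step, -0.15 in the step to day 4 and -0.01 in the p110 alpha line. No member passed 2-fold in the p110 alpha line, which says little beside 189 higher and 56 lower of all 13937 genes.

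**Figure D3:**
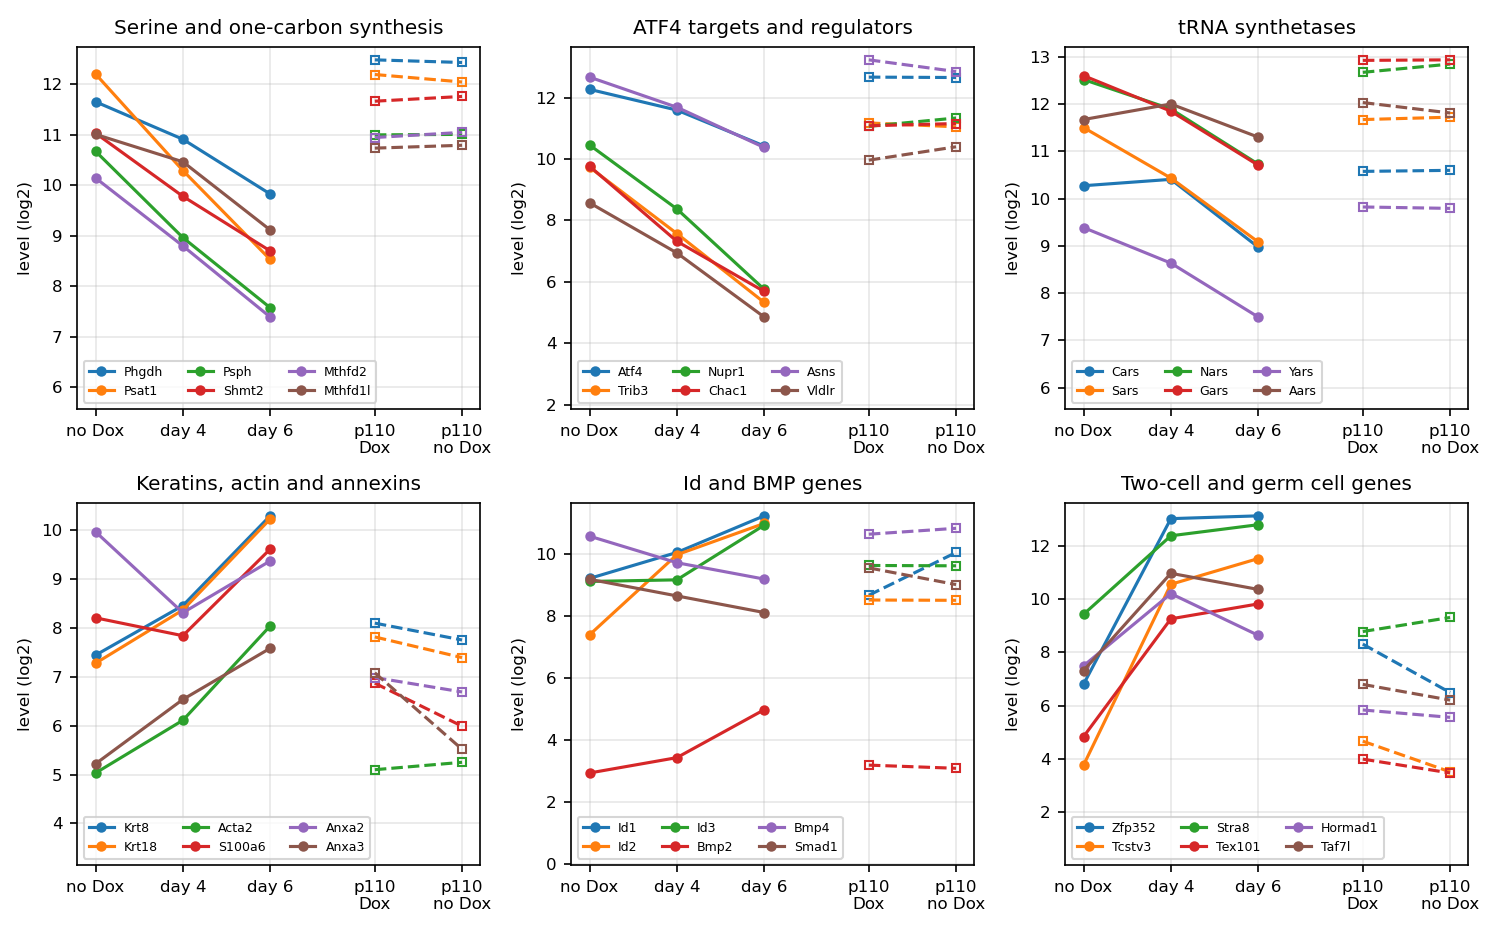
Log2 levels of 6 genes in each of 6 groups, in Max-null ESCs without Dox, at day 4 and at day 6 (filled circles, solid lines) and in p110 alpha Max-null ESCs with and without Dox (open squares, dashed lines), 1 array per point. Genes of serine synthesis and the ATF4 response step down at both days in Max-null ESCs, with Trib3 at 5.33 on day 6, Krt8, Krt18 and Id3 end higher at day 6, and Zfp352, at 13.02 on day 4, reads 13.12 on day 6.

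Ribosome biogenesis, the classical set of Myc targets, differed less. Of 35 genes none passed 2-fold in either direction, beside 3.85% of all genes, so that count says little for a list of this size. Below 0 lay 29, beside 7011 of all 13937 genes, and the median was -0.19, or -0.02 with the level trend removed. The 4 largest differences were Tfrc, the transferrin receptor (-0.73), Dkc1, which modifies ribosomal RNA (-0.53), Srm, spermidine synthase (-0.50), and Bop1, a ribosome assembly factor (-0.44). Between day 4 and untreated ESCs the median was -0.48, and 6 genes were at least 2-fold lower, beside 7.96% of all genes. Other probe sets of Tfrc ranged from -0.56 to 0.84 between the days, and that of Bop1 gave 0.30.

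Of the 13 genes of the Max network none differed 2-fold between the days, beside 3.85% of all genes. The list median was 0.01, which was -0.12 with each array centred and -0.05 with the level trend removed. Mnt, a repressor that pairs with Max, differed by -0.71 and Mga by -0.68, while a second probe set of Mnt gave 0.05 and the others of Mga -0.63 to 1.15. Mlxipl, the glucose-responsive factor ChREBP, differed by 0.55, Mycl by 0.44, Mlx, the partner of the Mondo proteins, by -0.39 and Mxi1, a Max-binding repressor, by -0.35, with another probe set of Mxi1 at 0.55. Mxd4, of the same repressor group, read 5.12, 6.69 and 7.01 in untreated, day 4 and day 6 Max-null ESCs, so most of its difference came by day 4. Mlxip, a glucose sensor of the Mondo group, read 7.52, 8.54 and 8.55. Mxd3 and Mxd1 differed by 0.07 and 0.05, and 1 other probe set of each lay below 0 (-0.07 and -0.05).

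Genes of naive pluripotency, the ground state of mouse ESCs, were nearly all lower at day 6 but by less than 2-fold. Of 26 genes 25 lay below 0, beside 7011 of all 13937 genes, and the median was -0.45. Only Tet2, an enzyme that oxidises methylated cytosine, passed 2-fold, 1 gene of 26 beside 2.41% of all genes lower. Tet2 read 10.87, 10.30 and 8.62 in untreated, day 4 and day 6 Max-null ESCs, and a second probe set differed by -0.73. Prdm14, which represses differentiation and methylation genes, differed by -0.80, Zfp42 (Rex1) by -0.74 and Fgf4, a growth factor of the epiblast, by -0.73, with other probe sets of Fgf4 at -1.22 to 0.14. Nanog differed by -0.58, Sox2 by -0.46 and Pou5f1 (Oct4) by -0.45, named after their values were seen. Pou5f1 read 13.01, 13.09 and 12.63, where the other 13 arrays spanned 12.84 to 13.16, so day 6 lay below all of them. The list median between day 4 and untreated ESCs was -0.04. These are genes of high level, and the median of the highest quintile of all genes was -0.17. With the level trend removed the list median was -0.26.

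Among LIF and Stat3 genes, 1 of 13 passed 2-fold, Bcl3, beside 3.85% of all genes. Bcl3 read 8.96, 8.08 and 5.76 in untreated, day 4 and day 6 Max-null ESCs. The lowest of the other 13 arrays read 7.86 for Bcl3. Il6st, the gp130 receptor subunit, differed by -0.83 and Lifr, its partner, by -0.70, but other probe sets gave -1.08 to 0.08 for Il6st and -0.16 and 0.67 for Lifr. Klf4 differed by -0.56, Pim3 by -0.47, Socs1 by 0.45, Jak1 by 0.33, Jak2 by 0.31 and Cish by -0.25. Stat3 itself differed by -0.18, Socs3, its feedback inhibitor, by -0.16, Gbx2 by 0.09 and Pim1 by 0.04. Among these, other probe sets lay across 0 for Stat3 (0.16), Socs3 (0.19), Pim3 (0.35) and Jak2 (-0.23).

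Id1, Id2 and Id3, direct targets of BMP signalling, were higher at day 6, and Id4 was not. Of 17 BMP and Id genes, 4 were at least 2-fold higher and none lower, beside 1.44% of all genes higher. Id3 read 9.10, 9.16 and 10.92 in untreated, day 4 and day 6 Max-null ESCs, and 9.62 with and 9.61 without Dox in the p110 alpha line. Id1 read 9.20, 10.04 and 11.22, and 8.66 with and 10.04 without Dox in the p110 alpha line. Id2 read 7.39, 9.97 and 10.97, and 8.51 with and 8.50 without Dox. Id1, Id2 and Id3 stood highest at day 6 of the 14 arrays, as did 3378 of all 13937 genes. They were named for their large differences, so this follows largely from the choice. Id3 differed almost entirely in the step after day 4, and Id1 went the other way with Dox in the p110 alpha line. Other probe sets of Id2 gave 0.58 and 0.25. Id4, named after its values were seen, read 7.98, 7.61 and 7.61, with other probe sets at -0.17 and 0.06 between the days, and 8.98 with and 7.59 without Dox in the p110 alpha line. Bmp2, a BMP ligand, differed by 1.54 at low levels of 4.97 at day 6 and 3.42 at day 4. The ligand Bmp4 (-0.53), the receptor Bmpr1a (-0.52) and the signal transducer Smad1 (-0.54) were on the other side of 0, but other probe sets gave 0.01 to 0.43 for Bmpr1a and -0.29 and 0.46 for Smad1. The list median was 0.23, or 0.10 with each array centred.

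Of 25 cytoskeleton and actin genes, 4 were at least 2-fold higher and none lower, beside 1.44% of all genes higher: Acta2 (1.93), S100a6 (1.77), Anxa2 (1.06) and Anxa3 (1.04). Actb and Actg1, the actins of every cell, differed by -0.14 and -0.16, as seen after the values were known. S100a6 read 8.20, 7.84 and 9.61 in untreated, day 4 and day 6 Max-null ESCs, and 6.87 with and 5.99 without Dox in the p110 alpha line. Anxa2, the membrane-binding partner of S100 proteins, read 9.96, 8.31 and 9.36, so day 6 lay between day 4 and untreated. Anxa3 read 5.22, 6.53 and 7.58, and 7.08 with and 5.52 without Dox in the p110 alpha line. Anxa3 was thus higher with Dox in both lines, whereas Acta2 differed by -0.15 with Dox in the p110 alpha line. The Acta2 value rests on 1 probe set: the others lay below the level filter and gave 0.20 and -0.50. The list median was 0.29.

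Lists of lineage markers had medians above 0 for 4 lineages and below 0 for neuroectoderm. The medians were 0.46 for 19 trophoblast genes, 0.43 for 19 mesendoderm and mesoderm genes, 0.25 for 23 primitive and visceral endoderm genes, 0.61 for 7 fibroblast genes and -0.05 for 13 neuroectoderm genes, beside 0.27 for all genes in the lowest quintile of level. With the level trend removed they were 0.31, 0.17, 0.25, 0.26 and -0.21 in the same order. A gene under the level filter at day 4 entered these lists only if it was above the filter at day 6, which favours values above 0. With no level filter the medians were 0.45, 0.29, 0.23, 0.30 and 0.09, beside 0.05 for all genes, so neuroectoderm was then above 0. In the trophoblast list Krt18 and Krt8 passed 2-fold, beside 1.44% of all genes, and Eomes and Krt19 differed by 0.96 and 0.93. Of the 6 markers that define the trophoblast, Elf5, Gata3 and Tpbpa lay below the level filter on both days, while Cdx2 read 6.07 at day 6 and 5.46 at day 4, Hand1 6.25 and 5.38, and Krt7 6.41 and 6.72. In the mesendoderm list Foxa2, a pioneer factor of endoderm, read 4.54, 6.23 and 7.55 in untreated, day 4 and day 6 Max-null ESCs, Lhx1, an organiser gene, 3.76, 3.99 and 5.09, and Kdr, a VEGF receptor, 5.52, 6.43 and 7.51. All 3 stood highest of the 14 arrays at day 6, as did 3378 of all 13937 genes. They were named for their large differences, so this follows largely from the choice, and Lhx1 was below the level filter at day 4. For Foxa2 the p110 alpha arrays read 4.77 with and 5.20 without Dox. Srgn (1.60), Col4a2 (1.41), Foxa2 (1.32) and Col4a1 (1.04) passed 2-fold in the primitive endoderm list. Col4a1, a chain of basement membrane collagen, read 7.13, 7.67 and 8.71, and its second probe set differed by 1.25. Of the 6 markers that define primitive endoderm, Gata4 and Sox7 lay below the level filter on both days, while Gata6 read 6.24 at day 6 and 5.34 at day 4, Sox17 6.43 and 5.66, Dab2 5.67 and 4.97, and Pdgfra 5.44 and 5.21.

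None of the 7 fibroblast genes passed 2-fold: Pdgfrb, Col1a2, Fbln2 and Col1a1 differed by 0.73, 0.73, 0.63 and 0.61, Dcn by 0.33, Thy1 by 0.30 and Mgp by -0.12. Col1a1 read 4.94 at day 6 and 4.32 at day 4, and Col3a1, Lum and Postn lay below the level filter on both days.

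**Figure D4:**
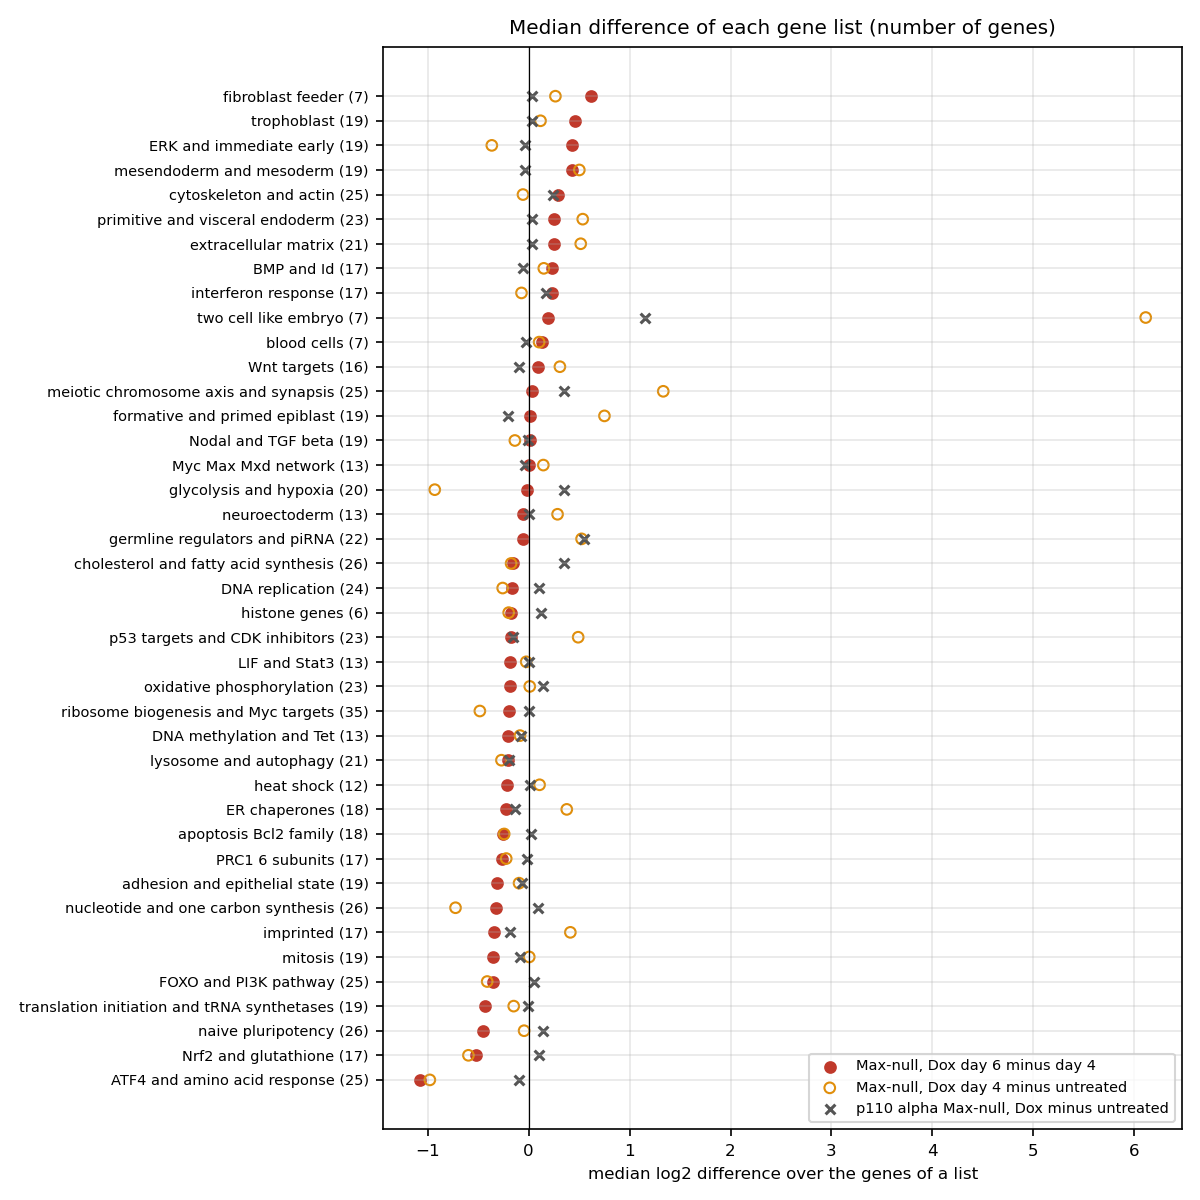
Median log2 difference of 41 gene lists in Max-null ESCs, day 6 minus day 4 (red), in Max-null ESCs, day 4 minus untreated (orange circles), and in p110 alpha Max-null ESCs, Dox minus untreated (crosses), with the number of genes of each list in brackets. The ATF4 list is lowest between the days at -1.08, and the 2-cell list, at 6.11 between day 4 and untreated, is at 0.19 between the days.

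Germ cell and 2-cell genes, which PRC1.6 keeps silent in ESCs, showed their 2-fold differences mainly by day 4. Of 7 genes of the 2-cell embryo, 6 were at least 2-fold higher at day 4 than without Dox, beside 5.08% of all genes. None of the 7 passed 2-fold between the days, where the median was 0.19. Zfp352 read 6.81, 13.02 and 13.12 in untreated, day 4 and day 6 Max-null ESCs, and 8.31 with and 6.50 without Dox in the p110 alpha line. Tcstv3 read 3.78, 10.56 and 11.52, and 4.67 with and 3.52 without Dox in the p110 alpha line. A second Zfp352 probe set differed by -0.85 between the days. Both genes were far above their untreated level on both days of Dox, and the p110 alpha array with Dox lay well below either day. The remaining members differed between the days by 0.39 (Tdpoz1), 0.20 (Usp17la), 0.19 (Tcstv1), 0.03 (Spz1) and -0.58 (Eif1a). Several members are multicopy genes whose probe sets can bind transcripts of close relatives, and 11 of the 18 genes of the list had no probe set of their own here.

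Of 25 meiotic genes, 17 were at least 2-fold higher at day 4 than without Dox, beside 5.08% of all genes. At day 6, 13 of those 17 stayed within 0.5 of the day 4 level, beside 476 of 708 over all genes. Between the days the median was 0.03, which was -0.10 with each array centred and 0.18 with the level trend removed. Msh5, a factor of meiotic crossing over, read 5.52, 5.59 and 6.97 in untreated, day 4 and day 6 Max-null ESCs, with a second probe set at 0.24 between the days. Hormad1, a protein of the meiotic chromosome axis, read 7.50, 10.21 and 8.64. Msh5 thus came late and Hormad1 turned back. Prdm9, which marks recombination sites, and Meiob, a strand-exchange factor, each differed by 0.73. Of 22 germline regulators and piRNA genes, 10 were at least 2-fold higher by day 4 and none passed 2-fold between the days, where Asz1 (0.94), Tdrkh (0.91), Tdrd12 (-0.80) and Piwil2 (-0.76), all of the piRNA pathway, differed most. Their median was -0.06, and 0.03 with the level trend removed. Stra8, the retinoic acid-induced gene of meiotic entry, read 9.43, 12.37 and 12.79. CACGTG stood in 8 of 21 promoter windows of the meiotic list (38.1%) and TTCCCGC in 9 (42.9%), beside 11.5% and 9.24% of all genes.

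Most genes that differed 2-fold at day 4 moved by less than 0.5 after it. The difference between the days had an SD of 0.47 over all genes. A move of less than 0.5 was therefore common among genes of any kind, and it does not set these genes apart. Of 708 genes at least 2-fold higher at day 4 than without Dox, 476 moved by less than 0.5 after day 4, 31 went at least 2-fold further and 24 at least 2-fold back. Of 1110 genes at least 2-fold lower at day 4, 713 moved by less than 0.5, 81 went at least 2-fold further and 3 back. The count of genes that held their level was added after the data were seen. Both steps use the day 4 array, so these counts describe 3 arrays.

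Genes counted as late differed by less than 0.5 between day 4 and untreated and at least 2-fold after it. There were 119 late higher genes (0.854% of all) and 129 late lower genes (0.926%). Centring each array gave 52 and 206, removing the level trend 39 and 122, and the filter at the 60th percentile 40 and 118. S100a6, Id3, Cartpt, Gbp2, Srgn, Zic1 (1.58), Bmp2 and Cfap54 (1.43) were the largest late higher differences, and 5 of the 8, Cartpt, Gbp2, Zic1, Bmp2 and Cfap54, were below the level filter at day 4. The largest late lower differences were Dlg3, Gm2381, Clock, Rlf, Armcx1 (-2.01), Zfp182 (-1.95), Pde4dip (-1.90) and Hhip (-1.83). Hhip, which sequesters Hedgehog ligands, read 7.26, 7.27 and 5.44 in untreated, day 4 and day 6 Max-null ESCs, and its other probe sets differed by -1.45 to -0.74. Zfp182, a zinc finger gene, read 6.96, 6.72 and 4.77, with a second probe set at -1.28. Pde4dip, a centrosome and Golgi protein, had other probe sets at -0.12 to 0.15, unlike Hhip and Zfp182. Of the 119 late higher genes, day 6 lay above the other 13 arrays for 111, and of the 129 late lower genes, below them for 99. Over all 13937 genes, day 6 was the highest array for 3378 and the lowest for 3801. Late genes were picked by their day 6 value, so these counts follow largely from the choice and are no separate evidence.

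Genes counted as continued had already differed by at least 0.5 the same way by day 4: 69 were higher (0.495%) and 168 lower (1.21%). Pcdh17, Acta2, Krt18, Krt8, Svs4, Lmntd2, Zfp672 and Rassf4 were the 8 largest continued higher differences. Zfp141, Nupr1, Slc1a4, Lrrc31, Bcl3, Trib3, Slc6a15 and Svip were the 8 largest continued lower ones, and 2 of these 8, Slc1a4 and Slc6a15, are amino acid carriers. Slc1a4 read 9.29, 8.38 and 5.84, and Slc6a15 read 8.57, 7.33 and 5.10 in untreated, day 4 and day 6 Max-null ESCs. Other probe sets of Slc1a4 gave -1.82 and -0.41. In the p110 alpha line the median of the continued lower genes was 0.05 and that of the continued higher genes 0.08.

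Genes counted as returning were few: 12 were higher at day 6 after being lower at day 4 (0.0861%), and 39 were lower at day 6 after being higher at day 4 (0.28%). At day 6, 8 of the 12 and 20 of the 39 lay within 0.5 of their untreated level. The 8 largest of the 39 were Gm4850, Ccdc117, Tsix (-2.05), Srgap2 (-2.04), 1700093K21Rik (-1.88), Chrm3 (-1.60), Cyria (-1.59) and Hormad1 (-1.56). Gm4850 read 5.54, 10.79 and 8.19 in untreated, day 4 and day 6 Max-null ESCs, so at day 6 it was still well above its untreated level. Tsix, the antisense RNA of the X inactivation centre, read 6.29, 7.60 and 5.56, below its untreated level. Other probe sets of Srgap2, which shapes the cell membrane, differed by -0.14 and 0.66. The 8 largest of the 12 were Crxos (1.39), Cryab (1.19), Rbp4 (1.17), Rhobtb2 (1.11), Pctp (1.07), Mars2 (1.06), Gm45914 (1.06) and Krt10 (1.06). Cryab, a small heat shock protein, read 5.15, 4.44 and 5.63, and 6.21 with and 5.10 without Dox in the p110 alpha line. Crxos, a homeobox gene, read 5.67, 4.93 and 6.33, and 5.13 with and 3.74 without Dox in the p110 alpha line. Rbp4, the retinol carrier, also was at least 2-fold higher with Dox in the p110 alpha line (1.29). These were 3 of the 12, beside 189 of all 13937 genes, and the median of the 12 in that line was 0.37. Pctp (0.83), Gm45914 (0.34), Krt10 (0.27), Mars2 (0.13) and Rhobtb2 (0.075) did not pass 2-fold there.

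The probe sets of a gene were compared on the same arrays, so they share any deviation of the day 6 array. The probe set used had the highest average, so the others had lower averages. Low levels tended to be higher at day 6, with a median of 0.27 in the lowest quintile and -0.17 in the highest. This trend favours a shared sign in the higher genes, and its part was not tested. Of the 200 higher genes 33 had another probe set above the level filter, and its median had the same sign in 32. Of the 336 lower genes 196 had one, with the same sign in 134 (68.4%), beside 62.7% of the 6362 genes with another probe set. In 4 higher and 20 lower genes every probe set above the filter passed 2-fold. The 4 were Krt8, Saa1, Cryab and Col4a1, and 5 of the 20 belong to the ATF4 or synthetase lists: Nupr1, Trib3, Psat1, Asns and Sars. These 24 genes were listed after their values were seen. Pck2, the mitochondrial enzyme that makes phosphoenolpyruvate, read 10.13, 8.21 and 6.34 in untreated, day 4 and day 6 Max-null ESCs. Neurod1, a neuronal transcription factor, read 5.84, 9.09 and 7.81, and Klf12, a zinc finger repressor, read 9.18, 7.75 and 6.18. Pck2 and Klf12 were lower at each step, while Neurod1 had been higher at day 4. Diaph2, an actin nucleator, read 8.74, 7.63 and 5.74, and Saa1, an acute-phase protein, read 4.11, 5.26 and 6.72.

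**Figure D5:**
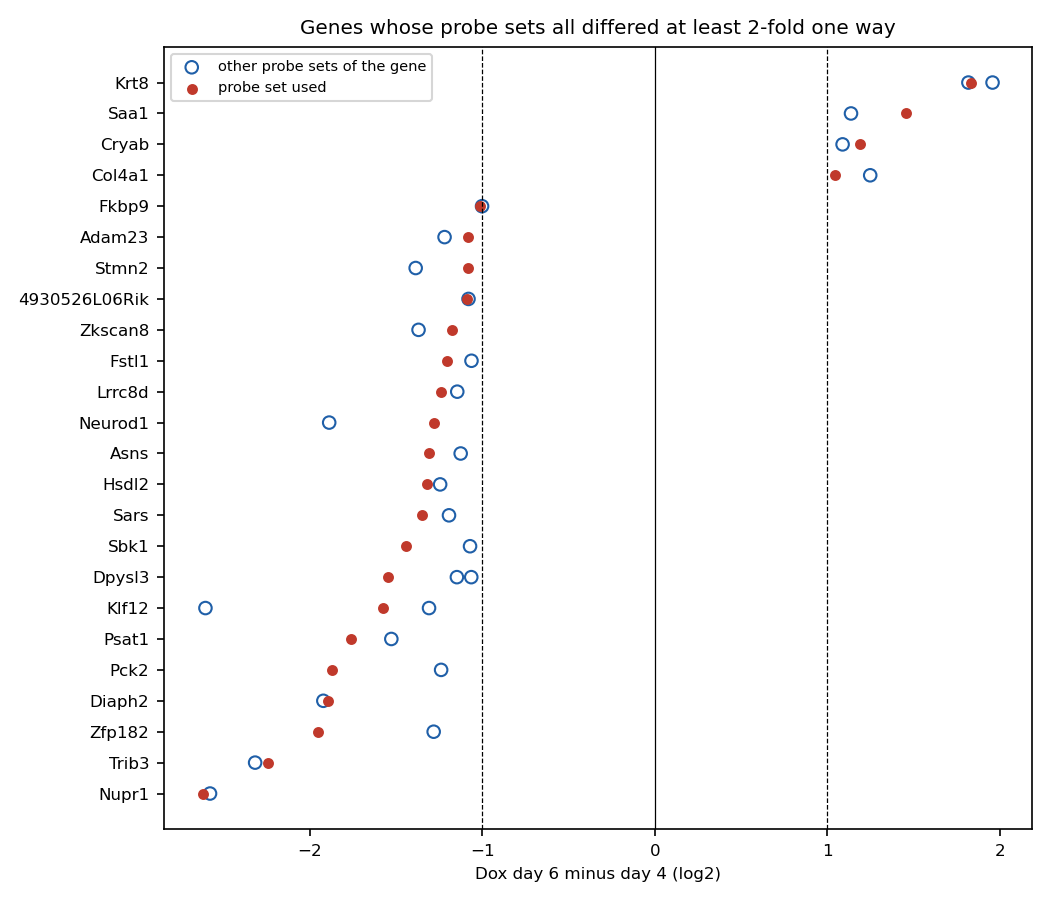
Day 6 minus day 4 log2 difference of every probe set above the level filter, for the 24 genes whose probe sets all differed at least 2-fold in 1 direction, with the probe set used for the gene in red and the others as open circles. The 2-fold lines are dashed, 20 genes lie to the left and 4 to the right, and Nupr1 is lowest at -2.62.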

How the data were processed

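Total RNA of 18 samples, extracted with TRIzol, was hybridised as biotinylated cRNA to 1 Affymetrix array each, per the labels. The deposited values are on the log2 scale, 1 per probe set, and the authors made them by RMA with the affy package, per the submitters' processing notes, with versions not given in the sources used here. Array medians fall into 2 sets of 14 and 4 arrays, which may be separate RMA runs that no label states, and all 5 Max-null arrays are in the set of 14. Precision is limited by how many arrays there are.

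Of 45101 probe sets, 34958 name 1 gene, 34754 of them matched by gene ID to the reference table (GRCm38.p6), 932 name several genes and 64 are controls. Where a gene had several probe sets (9012 of 18194 genes), the one with the highest average on the 18 arrays was used. Differences, counts and medians were computed with Python 3.11.15, pandas 2.3.3, numpy 2.4.6 and scipy 1.17.1 and the code was checked on simulated data. No test was made, since each day had 1 array.

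The gene lists (41), the gene classes and the choice to describe this comparison were made with earlier results of these data known, while its 2 arrays follow from their titles. Genes named are Max, Myc, Mycn and Pik3ca, the 15 largest differences each way, the 8 largest of each class and direction, and in each list described the 4 largest, or every member of lists of up to 14. Any other gene was named after its values were seen. Promoter windows are those of RefSeq for 11207 genes. Alternatives changed the level filter, the scaling, the probe set per gene, the fold and the baseline.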

Additional observations from a re-analysis of the deposited data

How the results depend on the processing

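Against 200 genes higher and 336 lower, centring each array on its median, which moved the median of all genes to -0.15, gave 95 higher and 516 lower, with 52 late higher, 206 late lower, 39 continued higher, 255 continued lower and 4 returning higher genes. Quantile normalization gave 192 and 365, and dropping the level filter 222 and 340. A filter at the 60th percentile left 105 higher, 40 late higher and 6 returning higher genes. The mean of all probe sets of a gene gave 171 lower, 63 late lower, 84 continued lower, 5 returning higher and 24 returning lower genes. Counting at 1.5-fold gave 1221 higher and 1426 lower, and at 3-fold 15 and 51. With the untreated p110 alpha array as the baseline there were 22 returning higher and 62 returning lower genes. Removing the level trend, chosen after seeing the data, gave 106 higher, 39 late higher and 4 returning higher genes. Of the 536 genes counted, 430 were shared with centring, 418 with quantile normalization, 280 with the probe set mean and 370 with the trend removed. The construction of the filter and fold settings sets their counts, and for the others the cause was not tested.

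With only probe sets without a suffix, Acta2 differed by -0.50 and Cryab by -0.0136. Of single genes under the alternatives, 1074 values stayed within 0.44, the spread between probe sets of a gene, and 68 moved further. A change of direction was looked for only in genes that differed at least 2-fold, where 2 values reversed. Smaller differences among the 1074 may have crossed 0. Of list medians 326 moved by less than that and 2 by more, neuroectoderm to -0.55 at the 60th percentile and histone genes to 0.46 without suffixed probe sets. No paired analysis was possible because each day had 1 array, and for the same reason no replicate could be left out.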

Other observations

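Further gene groups differed between day 6 and day 4 in a few members. The shares over all genes were 1.44% higher and 2.41% lower. Of 18 apoptosis genes 2 were at least 2-fold lower at day 6, Apaf1, the scaffold of the apoptosome, and Bmf, which antagonises Bcl2. Apaf1 read 8.44, 8.73 and 7.23 in untreated, day 4 and day 6 Max-null ESCs, and Bmf read 8.34, 7.81 and 6.57, while another probe set gave -0.12 for Apaf1 and 0.43 for Bmf. Xiap, an inhibitor of caspases, and Bid, a linker of death receptors to mitochondria, differed by -0.91 and -0.80, with another Xiap probe set at 0.34. Of 23 p53 targets and inhibitors of cyclin-dependent kinases 2 were lower, Cdkn1b, the p27 gene (-1.29, with another probe set at 0.30), and Zmat3 (-1.14). Gadd45b and Cdkn2c differed by 0.91 and 0.78. Of 19 mitosis genes 17 lay below 0, beside 7011 of all 13937 genes. Kif20a, a kinesin of cell division, read 10.43, 10.43 and 9.14. The next were Ccnb2 (-0.92), Cenpf (-0.84, with other probe sets at -0.26 and 0.09) and Aurkb (-0.71), and the median was -0.35, or -0.16 with the level trend removed. None of 24 DNA replication genes passed 2-fold.

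Of 25 FOXO and PI3K pathway genes Insr, the insulin receptor, and Klf15 were lower (-1.19 and -1.11), beside 2.41% of all genes. Foxo1 and Sesn3 differed by -0.86 and -0.77, with another Foxo1 probe set at 0.26. Insr read 8.00, 6.57 and 5.38 in untreated, day 4 and day 6 Max-null ESCs, with another probe set at 0.43. In the neuroectoderm list Zic1 was higher (1.58) and Tubb3 (-1.27), Map2 (-1.20) and Stmn2 (-1.08), genes of the neuronal cytoskeleton, were lower. The other members were Ncam1 (-0.89, with other probe sets at -1.42 to 0.77), Nefl (-0.55), Pou3f2 (0.45), Pax3 (-0.36), Nes (0.26), Pax6 (0.17), Gbx2 (0.09), Neurog1 (0.06) and Hes5 (-0.05). Among 17 imprinted genes Igf2 read 5.90, 7.43 and 8.56, and Grb10, which binds the insulin receptor, read 10.53, 8.93 and 7.93, although another probe set of Grb10 gave 0.83 between the days. Slc38a4 and Igf2r differed by -0.74 and -0.70. Ocln, of tight junctions, read 7.30, 6.28 and 4.76, with a second probe set at 0.02, and Cdh2, N-cadherin, differed by -1.04, Snai1 by 0.86 and Esrp1 by -0.70. None of 17 Nrf2 and glutathione genes passed 2-fold, but 13 lay below 0, beside 7011 of all 13937 genes. The list median was -0.52, and -0.60 between day 4 and untreated ESCs. Mt1 (-0.77, but 0.999 by its other probe set), Sod2 (-0.70), Gsr (-0.63) and Mt2 (-0.60) differed most between day 6 and day 4. B2 repeat transcripts, read by a control probe set, differed by 0.45 between the days and by 2.28 between day 4 and untreated ESCs.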
